A study of Mus musculus with 10 samples.

Results

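The levels of 9 genes that mark long-term hematopoietic stem cells, or set them apart from multipotent progenitors, were followed: Procr, Slamf1, Cd48, Hlf, Mecom, Fgd5, Ctnnal1, Hoxb8 and Mllt3. They were chosen by name for this role, and all 9 of 9 were found among the 25078 genes of the count table. Long-term stem cells renew themselves for life, while multipotent progenitors divide more often and soon commit to a lineage. Both lie in the LSK gate (lineage-negative, Sca1-positive, cKit-positive bone marrow cells), where stem cells are the small fraction that carries CD150 (Slamf1) and EPCR (Procr) but not CD48 at the surface. The transcription factors Hlf and Mecom and the chromatin reader Mllt3 sustain the stem cell state. Fgd5 and Ctnnal1 are known from reporter or marker use, and Hoxb8 was included by name. Cd48 alone marks the cells that have left the stem cell state.

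LSK cells were sorted from 5 CM mice and from 5 mice of the CM/miR-126Δ/Δ genotype, on a C57BL/6 background. CM mice carry 1 conditional Cbfb-MYH11 knock-in allele, Cbfb56M/+, with Mx1-Cre. CM/miR-126Δ/Δ mice carry the same alleles and 2 floxed alleles of miR-126, so that deletion was studied only with the fusion gene present. Both genotypes, 6 to 8 weeks old, received 7 doses of 14 mg/kg poly(I:C), which induces Cre from the Mx1 promoter in blood cells and many other cells, and were sampled 6 weeks later, before leukemia. The comparison asks whether the genes of stem cell identity differ in LSK cells when miR-126 is lost in the presence of CM.

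Library totals ran from 23649233 to 33202086 counts, and 3 counts, taken as the floor, corresponded to 0.0904 to 0.127 CPM (counts scaled to a common library total with TMM factors). Total counts were lower in CM/miR-126Δ/Δ (median 24908932) than in CM (median 29763105, exact permutation test, two-sided p = 0.0476). The deleted gene, Mir126a, gave 4, 5, 0, 2 and 3 counts over CM mice 1 to 5 against 0 in every CM/miR-126Δ/Δ library, so the deletion was visible but CM mouse 3 could not be told from it at this depth. Xist and Y-linked counts placed mice 1 to 3 of each genotype as females and mice 4 and 5 as males, which the labels do not state. The gate genes Kit and Ly6a (Sca1) averaged 172.5 and 57.8 RPKM (CPM divided by exon length in kilobases). Summed neutrophil and monocyte markers stood apart in CM/miR-126Δ/Δ mouse 4 (553 RPKM) and CM mouse 5 (250.2 RPKM), against 29.3 to 94.3 RPKM in the other 8, and 0 of 6 stromal markers reached 1 RPKM.

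The deleted microRNA is shown with its seed, bases 2 to 8, in capitals (RefSeq, GRCm38.p6, chr2:26591402-26591423, plus strand), because its seed is what a direct target would have to pair with.
mmu-miR-126a-3p: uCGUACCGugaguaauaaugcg
The 6-base match to seed bases 2 to 7, GGTACG, was found in 0 of the 9 genes' longest 3′ untranslated regions (GENCODE M1), which were 381 to 4224 bases long. Of 9638 genes that reached 1 RPKM and had such a region, 345 (3.58%) held it. The absence says only that these letters are not in these regions.

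The 9 genes spanned a wide range of levels (RPKM, the mean of 10 mice). Cd48, which encodes a surface ligand of the SLAM family shared by most progenitors and mature blood cells, was highest at 155 ± 13.4 RPKM (SD, n = 10) and ranked 159 of the 11682 genes that reached 1 RPKM in either genotype. Hlf, a transcription factor of the PAR bZIP family that supports stem cell quiescence, followed at 115 ± 17.8 RPKM, rank 264. Procr, the endothelial protein C receptor, stood at 24.4 ± 6.84 RPKM.

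Mecom, a zinc finger transcription factor needed for stem cell maintenance, averaged 17.01 ± 2.67 RPKM, and Mllt3, a reader of the super elongation complex with a role in stem cell expansion, averaged 15.8 ± 3.04 RPKM. Slamf1, the CD150 receptor, reached 5.01 ± 1.5 RPKM, Fgd5, a guanine nucleotide exchange factor for Cdc42, 3.59 ± 0.743 RPKM, and Ctnnal1, an alpha-catenin relative whose reporter marks stem cells, 3.09 ± 0.503 RPKM. Hoxb8, a homeobox transcription factor, was close to absent, with 0 to 8 counts in a library. Of the 8 pairs of neighbours in this order, 6 differed beyond the spread between mice (exact sign-change permutation test on the log2 ratio, two-sided, adjusted over 8 pairs). Mecom and Mllt3 were not separated beyond that spread (Mecom higher in 6 of 10 mice, exact adjusted p = 0.0859), and nor were Fgd5 and Ctnnal1 (Fgd5 higher in 7 of 10, exact adjusted p = 0.0859).

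**Figure D1:**
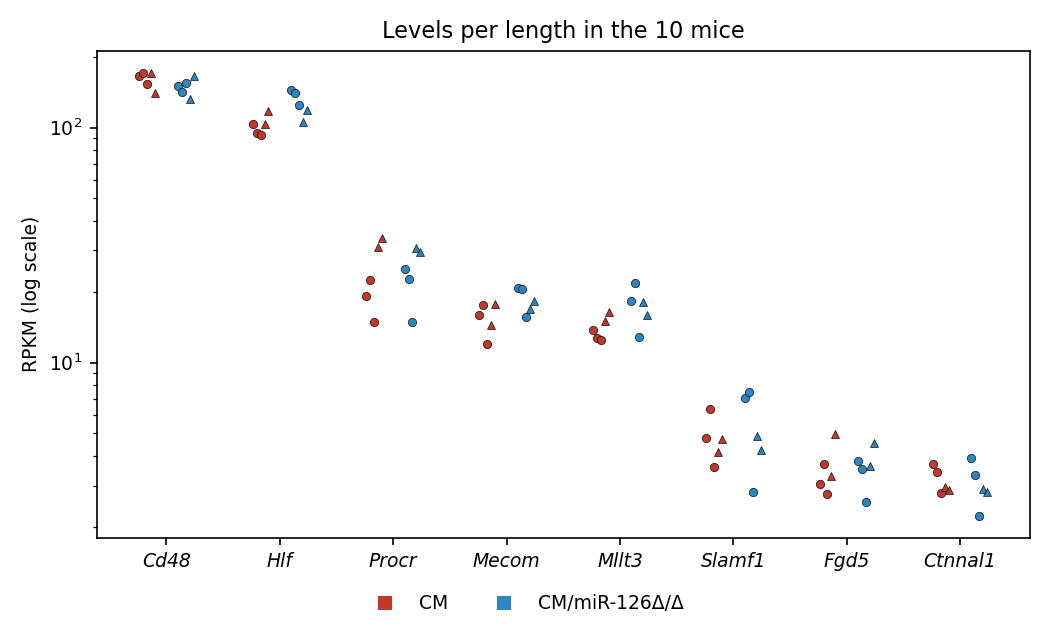
RPKM on a log axis of 8 of the genes in each of the 10 mice, CM in red and CM/miR-126Δ/Δ in blue, with circles for females and triangles for males. Cd48 and Hlf sit apart at the top, Procr, Mecom and Mllt3 lie together in the middle, and Hoxb8 is left out because 3 of its 10 libraries are at 0.

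Between the genotypes, 0 of the 9 genes met the study's thresholds (p of 0.01 or below, 1.5-fold or more, 1 RPKM or more), against 0.288% of the 18747 genes fitted. At an adjusted p under 0.05, 0 of 9 passed, against 0.0107% of all genes (0 of 9 also with DESeq2). At an unadjusted p under 0.05, 4 of 9 passed (3 with DESeq2), against 6.61% of all genes. Of the 9, 7 had a fold change above 1 and 2 (Cd48 and Ctnnal1) below. Their median log2 fold change of 0.16, which is the value of Slamf1, stood beside -0.01 for all 18747 genes fitted. The 11682 genes that reached 1 RPKM, which Hoxb8 did not, had a median of -0.02, with 4963 higher and 6719 lower. In 7 of the 9 the 95% interval of the difference lay within 1.5-fold either way. The libraries are bulk RNA, in which fewer cells of a type and less RNA per cell cannot be told apart.

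**Figure D2:**
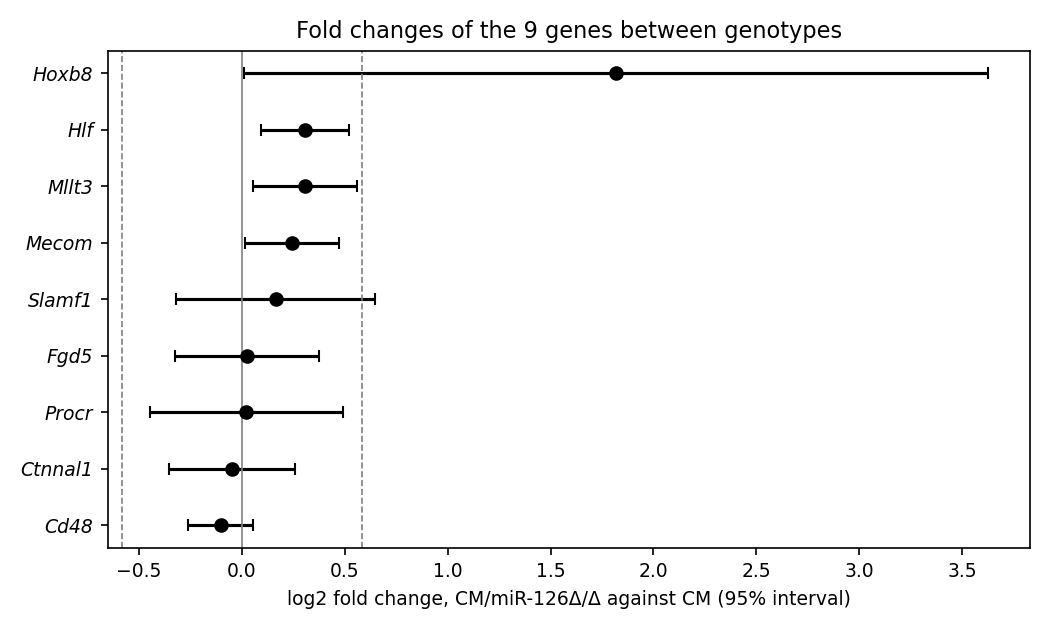
Log2 fold change of CM/miR-126Δ/Δ against CM with its 95% interval for each gene, with dashed lines at 1.5-fold either way. The intervals of Hlf, Mllt3, Mecom and Hoxb8 lie above 0, with Hoxb8 the widest, and those of the other 5 cross it.

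The transcription factor Hlf had the smallest p. Over CM mice 1 to 5 it read 588, 537, 526, 588 and 664 CPM, and over CM/miR-126Δ/Δ mice 1 to 5 it read 816, 798, 704, 601 and 671 CPM. In 4 of 5 CM/miR-126Δ/Δ mice it exceeded every CM mouse, and CM/miR-126Δ/Δ mouse 4, the library with the highest neutrophil markers, was the exception. Hlf averaged 581 ± 54.9 CPM (SD, n = 5) without the deletion and 718 ± 89.7 CPM (SD, n = 5) with it. The log2 fold change was 0.31 (SE 0.0990), a 1.24-fold difference with a 95% interval of 1.07 to 1.43, at an unadjusted p of 0.00797 and an adjusted p of 0.661 in edgeR. The exact permutation test gave p = 0.0159, where the smallest possible is 0.00794. With each mouse left out, the log2 fold change ran from 0.26 without CM/miR-126Δ/Δ mouse 2 to 0.38 without CM/miR-126Δ/Δ mouse 4. The edgeR adjusted p was 0.906 in the former fit and 0.268 in the latter. CM mouse 5, the other library with high neutrophil markers, had the highest Hlf of the CM mice. The part of the neutrophil markers in these values was not tested.

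Mllt3 and Mecom pointed the same way with wider intervals. Mllt3 was at 86.0, 78.9, 77.5, 93.8 and 103 CPM over CM mice 1 to 5 and at 114, 136, 79.7, 113 and 99.6 CPM over mice 1 to 5 with the deletion, with 3 of the latter above every CM mouse. Its log2 fold change was 0.31 (SE 0.118), with an unadjusted p of 0.0217 and an adjusted p of 0.746 in edgeR. Mecom was at 108, 119, 81.1, 98.2 and 121 CPM over CM mice 1 to 5 and at 141, 139, 106, 115 and 123 CPM over mice 1 to 5 with the deletion, again with 3 above every CM mouse. Its log2 fold change was 0.24 (SE 0.107), with an unadjusted p of 0.0393 and an adjusted p of 0.748 in edgeR. For both, the exact permutation test gave p = 0.0952. Over the 18 alternatives the unadjusted p stayed under 0.05 in 18 for Hlf, 17 for Mllt3 and 13 for Mecom. Without CM/miR-126Δ/Δ mouse 2 it was 0.0751 for Mllt3 (log2 fold change 0.21) and 0.0987 for Mecom (log2 fold change 0.20). For Mecom the unadjusted edgeR value was also above 0.05 without CM mouse 3 (0.0803, at a log2 fold change of 0.18), CM mouse 4 (0.0732), CM/miR-126Δ/Δ mouse 1 (0.0888) and CM/miR-126Δ/Δ mouse 5 (0.0540). The table counts Mecom as 1 gene, so its long and short forms, which start from separate promoters, could not be told apart.

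Procr, Slamf1, Fgd5 and Ctnnal1, the surface and reporter genes of long-term stem cells, overlapped between the genotypes. Procr was at 28.8, 33.7, 22.3, 46.5 and 51.2 CPM over CM mice 1 to 5 and at 37.8, 34.1, 22.3, 46.3 and 44.6 CPM over mice 1 to 5 with the deletion, with a log2 fold change of 0.02 (95% interval -0.45 to 0.49). Slamf1 was at 16.5, 21.9, 12.4, 14.4 and 16.3 CPM over CM mice 1 to 5 and at 24.3, 25.8, 9.71, 16.7 and 14.7 CPM over mice 1 to 5 with the deletion. The Slamf1 values of the deleted mice held both the highest and the lowest of the 10, and the log2 fold change was 0.16 (95% interval -0.32 to 0.65). It ran from 0.0073 without CM/miR-126Δ/Δ mouse 2 to 0.32 without CM/miR-126Δ/Δ mouse 3, so its size rested on single mice. Fgd5 ran from 16.6 to 29.8 CPM without the deletion and from 15.4 to 27.3 CPM with it, with a log2 fold change of 0.03 (95% interval -0.32 to 0.38). Ctnnal1 ran from 10.3 to 13.7 CPM and from 8.23 to 14.5 CPM, with -0.05 (95% interval -0.36 to 0.26). For these 4 genes the edgeR adjusted p was 0.875 to 0.983.

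Cd48, the marker of cells outside the stem cell compartment, was at 199, 206, 185, 206 and 169.7 CPM over CM mice 1 to 5 and at 180.3, 171, 187, 159.9 and 199 CPM over mice 1 to 5 with the deletion. The groups overlapped. The log2 fold change was -0.10 (SE 0.0732), with an edgeR adjusted p of 0.765, and it was -0.05 without CM/miR-126Δ/Δ mouse 4. Cd48 and Slamf1 are neighbours on chromosome 1, with 61874 bases between them (mm10). The Slamf1 level was 6.71% to 10.6% of the Cd48 level in CPM in CM (median 8.27%) and 5.18% to 15.03% in CM/miR-126Δ/Δ (median 10.5%), so the wider spread was in the deleted mice and the ranges overlapped.

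Hoxb8 had 0, 3, 1, 0 and 3 counts in CM and 0, 8, 4, 3 and 7 counts in CM/miR-126Δ/Δ mice. The sums of 7 and 22 counts gave a ratio of 3.74 with a 95% interval of 1.54 to 10.4, which covers counting error only. The edgeR fit gave a log2 fold change of 1.82 (SE 0.844), an unadjusted p of 0.0491 and an adjusted p of 0.754. The unadjusted p stayed under 0.05 in 8 of 16 alternatives. All 5 CM values lie at or under the floor of 3 counts.

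In none of the 8 members that reached 1 RPKM were all CM/miR-126Δ/Δ mice on one side of all CM mice, against 1.38% of the 11682 genes at that level. The members varied more between mice of a genotype than many genes of like level. The biological coefficient of variation was 25.5% for Procr, above that of 97.9% of 1220 genes of like CPM, and 26.4% for Slamf1, above 96.2% of 956 genes. It was 13.97% for Mllt3 (95.4% of 948 genes), 19.6% for Fgd5 (93.1%) and 12.8% for Mecom (92.9%). For Cd48 it was 9.18%, in the middle of its neighbours (58.9%). For Hlf it was 11.6% (72.7%), for Ctnnal1 17.2% (76.6%) and for Hoxb8, at very low counts, 68.8% (86.7%). With the replicate number as a term in the fit, which also takes up the difference between males and females, the coefficient was 10.1% for Procr, 14.9% for Slamf1, 11.1% for Fgd5, 7.88% for Mecom, 11.9% for Mllt3 and 9.82% for Cd48. Values of genes of like level in that fit are not given here.

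**Figure D3:**
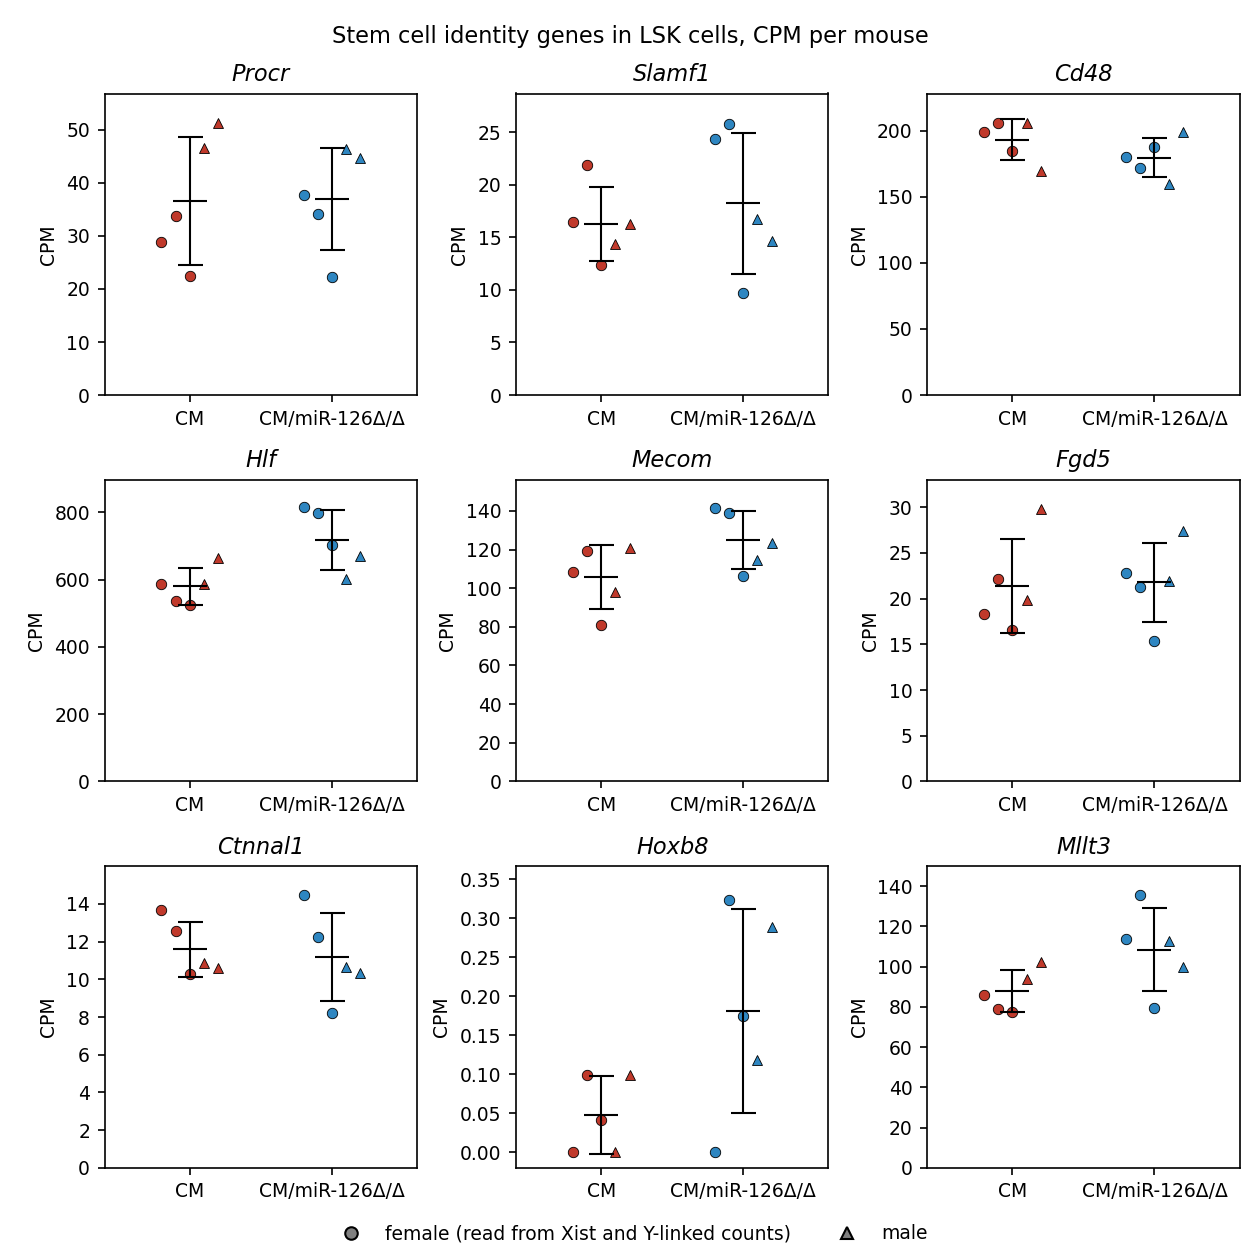
CPM of each of the 9 genes in each mouse by genotype, circles for females and triangles for males, with the mean and SD (n = 5) as bars. The genotypes overlap for every gene, the difference is clearest for Hlf, and the triangles of Procr lie above its circles in both genotypes.

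The Procr levels of males and females did not overlap. Procr was at 44.6 to 51.2 CPM in 4 males and 22.3 to 37.8 CPM in 6 females, and it was the 1 of the 9 genes without overlap, beside 3.32% of the 11682 genes that reached 1 RPKM. The log2 fold change of males against females was 0.66 (SE 0.134; 1.58-fold), at an unadjusted p of 0.000225 and an adjusted p of 0.0896 in edgeR. At an adjusted p under 0.05, 0 of the 9 genes passed, against 0.155% of all genes. With DESeq2 the adjusted p of Procr was 0.00144, in a fit where 254 genes passed 0.05. Without CM/miR-126Δ/Δ mouse 1 the adjusted p of Procr was 0.0464 in edgeR, where 25 genes passed. Summed neutrophil and monocyte markers were 34.1 to 553 RPKM in males and 29.3 to 94.3 RPKM in females, and the 2 libraries where they stood apart were both male. Their highest gene, S100a9, was at 1.69 to 109 CPM in males and 0.566 to 8.397 CPM in females, with a log2 difference of 3.38 (SE 0.836, adjusted p = 0.164 in edgeR). The gate gene Ly6a was at 54.8 to 70.3 CPM in males and 43.6 to 61.2 CPM in females, with a log2 difference of 0.31 (SE 0.0956, adjusted p = 0.289 in edgeR). The log2 difference of Procr was 0.60 without CM mouse 5 and 0.68 without CM/miR-126Δ/Δ mouse 4, with edgeR adjusted p of 0.333 and 0.211. The part of these markers in the difference was not tested. Fgd5 had a log2 difference in the same direction of 0.35 (SE 0.137, unadjusted p = 0.0240, adjusted p = 0.465). The comparison was chosen after the values were seen, and since the males are mice 4 and 5 in both genotypes, sex and replicate number cannot be told apart.

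Hlf had an uneven pattern between the sexes. In CM females it was at 526 to 588 CPM and in females with the deletion at 704 to 816 CPM, without overlap, while in males it was at 588 to 664 CPM and 601 to 671 CPM. The interaction of genotype and sex had a log2 value of -0.47 (SE 0.146), an unadjusted p of 0.00698 and an adjusted p of 0.9999 in edgeR, so the difference between sexes did not pass the correction. The other 8 genes had an unadjusted interaction p above 0.05. The share of all genes under that value is not given here, so Hlf has no background to be set against. The males include both libraries where neutrophil and monocyte markers stood apart, CM mouse 5 (250.2 RPKM) and CM/miR-126Δ/Δ mouse 4 (553 RPKM). Their Hlf values were the 664 CPM of CM males and the 601 CPM of males with the deletion. The part of these markers in the pattern was not tested.

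**Figure D4:**
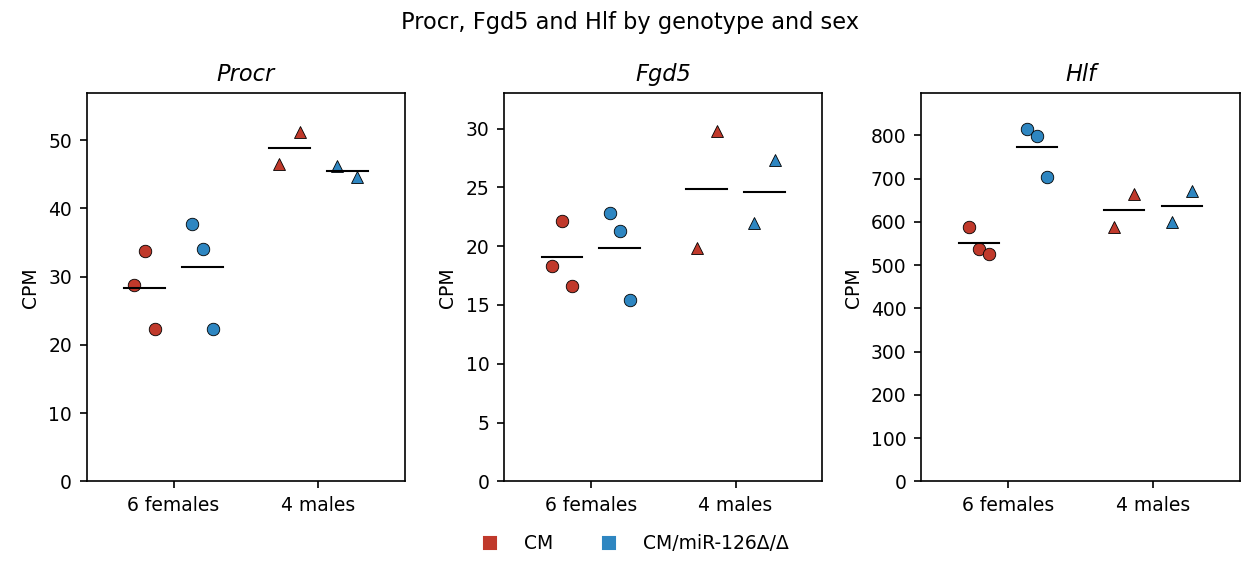
CPM of Procr, Fgd5 and Hlf by sex and genotype (3 females and 2 males per genotype), with lines at the means. All 4 males lie above all 6 females for Procr, and for Hlf the genotypes part in females and overlap in males.

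The genes were next compared for variation together over the 10 mice, on log2 CPM. Of 36 pairs, 28 had a positive Pearson r, and 0 passed an adjusted p of 0.05 (7 had an unadjusted permutation p under 0.05). Procr and Fgd5 had r = 0.85 and Spearman rho = 0.72 (permutation p adjusted over 36 pairs, 0.0524 and 0.138), and r was 0.65 without the 2 mice farthest from the median of Procr. Slamf1 and Ctnnal1 had r = 0.84 and rho = 0.79 (adjusted permutation p = 0.0524 and 0.128), and r was 0.79 without 2 such mice. Hlf and Mecom had r = 0.76 and rho = 0.71 (adjusted permutation p = 0.112 and 0.138), and r was 0.51 without 2 such mice.

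Mecom took part in 3 of the 6 highest correlations. Slamf1 and Mecom had r = 0.74 and rho = 0.76 (adjusted permutation p = 0.12 and 0.128), Mecom and Mllt3 r = 0.72 and rho = 0.76 (0.12 and 0.128), and Hlf and Mllt3 r = 0.71 and rho = 0.76 (0.130 and 0.128). Without the 2 mice farthest from the median these r were 0.80, 0.64 and 0.38, so the last rests on those mice. Cd48 had a negative r in 7 of its 8 pairs, of which none passed, and the lowest was -0.62 with Mllt3 (rho = -0.61, adjusted permutation p = 0.244 and 0.262). Centred within genotype, r of Cd48 was -0.51 with Mllt3, -0.12 with Hlf and -0.05 with Mecom. With values centred within genotype, and permuted within it, 0 of 36 pairs passed (6 at an unadjusted p under 0.05). With values centred within genotype and sex, r was 0.79 for Procr and Fgd5, 0.88 for Slamf1 and Ctnnal1 and 0.73 for Hlf and Mecom. In the same values the highest r of the 36 was 0.96 for Procr and Slamf1, followed by 0.91 for Procr and Mecom and 0.91 for Procr and Ctnnal1. Over all 10 mice without centring these were 0.37, 0.46 and 0.19. Without centring and without the 2 mice farthest from the median of Procr, they were -0.52, -0.18 and -0.80. Values centred within genotype and sex come from groups of 2 or 3 mice, and their r carry no test here. Centred within genotype and sex, r of Cd48 was near 0 with Hlf (-0.05), Mecom (-0.01), Procr (-0.07) and Ctnnal1 (-0.04) and -0.47 with Mllt3.

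**Figure D5:**
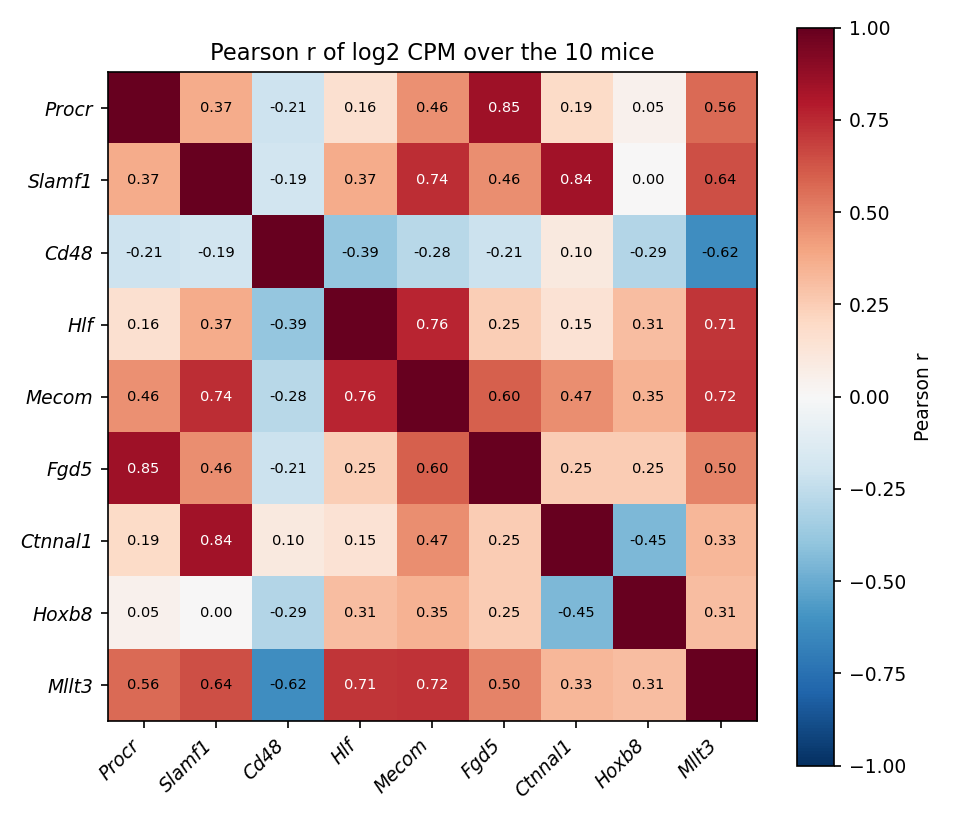
Pearson r of log2 CPM over the 10 mice for each pair of genes, red for positive and blue for negative. The row of Cd48 is mostly pale blue, no pair passed the correction, and the strongest pairs are Procr with Fgd5 and Slamf1 with Ctnnal1.

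The gene whose level was most like that of Mecom, among 11681 others that reached 1 RPKM, was its paralogue Prdm16, with r = 0.986 over the 10 mice and 0.985 with values centred within genotype and sex. Prdm16 was at 24.8, 27.0, 17.6, 22.1 and 27.7 CPM over CM mice 1 to 5 and at 33.8, 31.9, 22.7, 25.2 and 30.3 CPM over mice 1 to 5 with the deletion. In both genotypes the lowest value of Mecom and of Prdm16 was in mouse 3. The log2 fold change of Prdm16 was 0.27 (SE 0.134, unadjusted p = 0.0641, adjusted p = 0.764 in edgeR). The r is the highest of many and is a description, in which the 10 points share library and depth.

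The promoters of the genes were read from RefSeq (GRCm38.p6, 250 bases before to 50 after the start), with 11 promoters for the 9 genes. Those of Slamf1, Mecom, Cd48 and Hlf are shown. They are from among the surface genes that define the stem cell gate and the regulators with a small unadjusted p, of which Procr and Mllt3 are not shown. Capitals mark the motifs searched on both strands: TGTGGT, the core of RUNX binding, which pairs with CBFB, and AGATAA and TGATAA, cores of GATA binding.
Hlf, chr11:90390868-90391167, minus strand: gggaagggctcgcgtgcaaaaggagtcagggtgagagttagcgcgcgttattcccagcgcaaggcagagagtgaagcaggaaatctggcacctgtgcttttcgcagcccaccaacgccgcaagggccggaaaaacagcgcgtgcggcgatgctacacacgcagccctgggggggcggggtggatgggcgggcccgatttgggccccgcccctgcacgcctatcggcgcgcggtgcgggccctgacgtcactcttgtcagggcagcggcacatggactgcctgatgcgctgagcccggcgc
Mecom, upstream start, chr3:30509710-30510009, minus strand: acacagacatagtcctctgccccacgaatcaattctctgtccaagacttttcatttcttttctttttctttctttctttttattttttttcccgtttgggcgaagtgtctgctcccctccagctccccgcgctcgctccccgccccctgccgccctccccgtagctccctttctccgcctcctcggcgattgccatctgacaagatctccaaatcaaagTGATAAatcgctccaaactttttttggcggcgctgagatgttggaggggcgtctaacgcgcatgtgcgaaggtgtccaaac
Mecom, downstream start, chr3:30013155-30013454, minus strand: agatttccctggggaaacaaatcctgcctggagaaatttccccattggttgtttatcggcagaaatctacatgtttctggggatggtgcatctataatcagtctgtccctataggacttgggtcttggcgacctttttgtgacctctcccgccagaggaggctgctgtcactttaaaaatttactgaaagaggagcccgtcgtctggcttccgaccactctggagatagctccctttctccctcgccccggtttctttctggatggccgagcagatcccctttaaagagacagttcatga
Slamf1, chr1:171766882-171767181, plus strand: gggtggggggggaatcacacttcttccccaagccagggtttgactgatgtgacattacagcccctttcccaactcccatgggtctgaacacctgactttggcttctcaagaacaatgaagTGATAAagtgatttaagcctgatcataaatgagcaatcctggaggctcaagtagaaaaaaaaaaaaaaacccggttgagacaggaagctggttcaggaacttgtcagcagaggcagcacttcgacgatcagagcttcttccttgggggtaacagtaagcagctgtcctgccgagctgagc
Cd48, chr1:171681742-171682041, plus strand: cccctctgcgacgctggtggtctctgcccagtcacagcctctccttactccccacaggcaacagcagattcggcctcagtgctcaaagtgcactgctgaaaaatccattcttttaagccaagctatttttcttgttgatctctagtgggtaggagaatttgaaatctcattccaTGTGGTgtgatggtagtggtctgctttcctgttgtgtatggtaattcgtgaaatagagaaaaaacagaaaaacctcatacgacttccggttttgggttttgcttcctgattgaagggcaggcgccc
TGTGGT was found in 1 of the 11 promoters, that of Cd48, beside 16.8% of 32851 promoters. TGATAA was found in 3 (Slamf1, the upstream start of Mecom, and Hoxb8), beside 9.05% of all, and AGATAA in 0, beside 11.2%. The promoters of Hlf and of the downstream start of Mecom held none of the 3, and nor did those of Procr, Mllt3, Fgd5 and Ctnnal1. These matches are letters in a window and say nothing of binding.

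The other genes of the stem cell state gave no call. Of 30 other genes tied to stem cells, 0 were called, and of the 27 that reached 1 RPKM, 18 were higher and 9 lower in CM/miR-126Δ/Δ (median log2 fold change 0.05). The smallest p of that list were those of Neo1, the neogenin receptor, with a mean of only 0.245 RPKM (log2 fold change 0.93, SE 0.262, adjusted p = 0.612 in edgeR), and of Klhl4 (0.46, SE 0.147, adjusted p = 0.661). Hoxb5, a homeobox gene used as a stem cell reporter, was at 1.03, 1.35, 1.31, 1.31 and 1.95 CPM over CM mice 1 to 5. Over mice 1 to 5 with the deletion it was at 2.41, 2.46, 1.74, 1.82 and 2.02 CPM. Its log2 fold change was 0.59 (SE 0.215, adjusted p = 0.746 in edgeR). The 4 HOXB genes that reached 1 RPKM all had a fold change above 1, with a median log2 fold change of 0.26.

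Of 22 multipotent progenitor genes, which mark the cells that Cd48 also marks, 1 was called, and of the 21 that reached 1 RPKM, 5 were higher and 16 lower (median log2 fold change -0.11). The gene called was Il7r, the interleukin 7 receptor of lymphoid progenitors, at 10.3, 28.2, 15.3, 17.3 and 18.4 CPM over CM mice 1 to 5 and at 8.86, 9.85, 8.88, 14.4 and 4.24 CPM over mice 1 to 5 with the deletion. Its log2 fold change was -0.95 (SE 0.280, unadjusted p = 0.0043, adjusted p = 0.626 in edgeR), and the call was lost without CM mouse 2 (-0.73) and without CM/miR-126Δ/Δ mouse 1 (-0.93). Cd52, a lymphoid surface glycoprotein (-0.48, SE 0.139), and Ccr9, a chemokine receptor at 0.538 RPKM (-0.80, SE 0.232), came next, each with an adjusted p of 0.612. The lists of SLAM family, protein C receptor pathway, PAR bZIP, MECOM partner, FGD family, alpha-catenin, HOXB and MLLT3 complex genes had 0 calls each. Of these, the SLAM gene Ly9 lay at -0.13 (SE 0.0583), the thrombin receptor gene F2rl3 at 0.20 (SE 0.0943) and the Hlf relative Tef at -0.13 (SE 0.0596), with adjusted p of 0.753, 0.753 and 0.749.

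Markers of other cells that the gate could hold had 0 calls in each list. Markers of endothelial cells, which also express Procr and Fgd5, summed to 60.7 to 75.7 RPKM in CM and 61.2 to 73.7 RPKM in CM/miR-126Δ/Δ. Pecam1, the highest of them, averaged 57.3 RPKM, and 3 of the 8 reached 1 RPKM on average in either genotype. Megakaryocyte markers summed to 54.8 to 81.1 and 46.4 to 76.3 RPKM, erythroid markers to 8.52 to 88.1 and 22.5 to 68.3 RPKM, and mast cell and basophil markers to 98.3 to 189 and 92.9 to 186 RPKM. B cell markers summed to 21.5 to 30.7 and 19.2 to 29.0 RPKM, and T and NK cell markers to 2.69 to 5.82 and 2.27 to 6.63 RPKM. The ranges of the genotypes overlapped in every list, and their part in the results was not tested.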

How the data were processed

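RNA-seq counts were analysed from the LSK cells of 10 mice, 5 per genotype, with 1 library each. Groups and replicate numbers were taken from the sample labels. Per the labels, libraries were stranded and depleted of ribosomal RNA. According to the study's methods, the authors sequenced single-end reads of 51 bases, trimmed adapters (Trimmomatic 0.38) and poly(A) tails (FASTP 0.19.4), mapped the reads to mm10 (Tophat 2.0.8) and tallied them over RefSeq genes (HTSeq 0.6.1). The counts they deposited are raw whole numbers. The strand setting of the counting is not given in the sources used here. A second deposited table holds each count divided by 1 constant per library and was not used. 

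From the counts, TMM factors (edgeR 4.0.16, R 4.3.3), CPM and RPKM (TMM-scaled library size, exon length as listed) were computed. The 18747 genes with at least 1 count were fitted by the edgeR quasi-likelihood F-test, two-sided, with genotype as the only term and Benjamini-Hochberg adjustment over all of them. A call required p of 0.01 or below, 1.5-fold or more and 1 RPKM or more on average in either genotype, which are the study's thresholds. Single genes were also compared by the two-sided exact permutation test of mean CPM over all splits of the mice into 5 and 5. Pairs of genes were compared on log2 CPM with a prior count of 2 (permutation tests with 100000 resamples), and neighbours in level by the exact sign-change permutation test. The tests were checked on simulated data. Alternatives were RLE factors, DESeq2 1.42.0, 2 filters on low counts, the edgeR 4 form of the test, a replicate block, sex as a term, Rn45s left out, and each mouse left out. The genes and lists were chosen with earlier results of these data known. Genes other than the 9 were named by rule: any gene of a list that met the call, the 2 with the smallest p of each list, the 2 with the highest Pearson r to each of the 9, and the highest marker of each other cell type. A gene that this rule names is not reported here. Male and female mice were told apart by Xist and Y-linked counts, a comparison added after the data were seen.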

Additional observations from a re-analysis of the deposited data

How the results depend on the processing

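None of the 9 genes was called under any of 18 alternatives (Hoxb8 could be fitted in 16). The number of genes called among all genes, 54, was 115 with the replicate block and between 33 (without CM/miR-126Δ/Δ mouse 5) and 128 (without CM mouse 3) with each mouse left out, with 94 without CM/miR-126Δ/Δ mouse 4 and 85 without CM/miR-126Δ/Δ mouse 1. The number at an adjusted p under 0.05, which was 2 in edgeR, was 45 with DESeq2, 20 with the replicate block, 4 with the filterByExpr filter, 4 with a mean RPKM of at least 1 required, 4 with sex as a term, and 1 to 7 with each mouse left out. With each mouse left out, the log2 fold change ran from -0.10 to 0.19 for Procr, from -0.069 to 0.19 for Fgd5, from -0.15 to 0.041 for Ctnnal1 and from -0.056 to 0.125 for Ly6a, so that the direction of these 4 was not fixed. The cause was not tested. The number of pairs of genes at an adjusted p under 0.05 ran from 0 to 3 with each mouse left out, with 3 without CM mouse 2, 1 without CM mouse 1 and 1 without CM mouse 4. Of the 9 genes, 1 (Procr) passed an adjusted p of 0.05 between males and females with DESeq2, beside 254 of all genes. With each mouse left out, 0 to 1 of the 9 passed in edgeR, beside 14 to 41 of all genes.

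The replicate numbers are shared by the genotypes. The labels name no shared litter, batch or day, but same-numbered libraries carry consecutive numbers in their descriptions and came from mice of the same sex. The correlation of their deviations from the genotype means was 0.176, 0.164, 0.430, 0.292 and -0.00355 for mice 1 to 5, with a mean of 0.211 against -0.0535 for different numbers (exact permutation test, p = 0.0333) and with 5 of 10 libraries correlating best with their own number. Because mouse 5 shows no such correlation, the numbers were not taken as pairs, and single p-values with the replicate block are given only here. That fit is also among the alternatives counted above. The replicate block brought 0 of the 9 genes to an adjusted p under 0.05. At an unadjusted p under 0.05, 4 of the 9 passed with it in edgeR. The share of all genes under that value in this fit is not given here, so the count has no background. Mecom had the smallest values, with an unadjusted p of 0.00157 and an adjusted p of 0.186. Hlf followed, with an unadjusted p of 0.00407 in the same fit. Both genes were higher with the deletion in all 5 same-numbered pairs. That pattern, too, is given without the share of all genes that show it. Low counts limit what can be said of Hoxb8, for which 3 counts correspond to 0.0904 to 0.127 CPM.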

Other observations

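Among genes outside the 9 whose levels followed one of them most closely over the 10 mice, the level of E2f7, a repressor among the E2F transcription factors, had a Pearson r of 0.975 with that of Slamf1. For Procr the genes were Tgfbr3, which encodes betaglycan, a co-receptor for TGF-beta ligands (r = 0.972), and Pou6f1 (r = 0.963). For Hlf they were Bach1, a repressor that responds to heme (r = 0.943), and Erc1 (r = 0.918). For Ctnnal1 they were Chtf18, a subunit of a loader of the PCNA clamp (r = 0.952), and Phtf1 (r = 0.936). Castor1 and Tmem38a were nearest to Fgd5 (r = 0.934 and 0.922), Stap1 and Elk1 to Mllt3 (r = 0.922 and 0.914), and Trap1 and Thg1l to Cd48 (r = 0.920 and 0.915). For Hoxb8, with 0 to 8 counts per library, the nearest genes were Hivep3 (r = 0.933) and Sik2 (r = 0.900), and these rest on a handful of reads. All are the highest of 11681 or 11682 genes compared over the same 10 libraries, so high values are found by selection, and they are given as a description. With each mouse left out in turn, r for the nearest gene stayed between 0.966 and 0.981 for Slamf1 with E2f7 and between 0.963 and 0.980 for Procr with Tgfbr3. With values centred within genotype and sex, r was 0.994 for Slamf1 with E2f7, 0.934 for Procr with Tgfbr3 and 0.942 for Hlf with Bach1.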
